A study of Homo sapiens with 4 samples.

Results

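Within 1 Mb of an end of chromosomes 1 to 22, 1838 accessible regions were found, out of 76644 on the autosomes and 80551 in the whole series. A region is a run of ATAC-seq peaks that overlap by at least 1 bp between libraries, and it counted as subtelomeric where its centre lay no more than 1000000 bp from either end of the hg38 chromosome. The peaks came from HepG2, a line derived from a human hepatocellular carcinoma, of wild-type genotype and grown as an epithelial culture. Control libraries 1 and 2 were untreated, and tazemetostat libraries 1 and 2 came from cells that were exposed for 48 h to the EZH2 inhibitor at 5 µM in DMSO. Each library was made from 50000 cells by Omni-ATAC, in which a transposase cuts open DNA, and the protocol given for all 4 libraries includes a DNase digestion of free DNA beforehand. Nothing in the labels says whether replicates were separate cultures, so any p-value here measures a spread between libraries that may be technical.

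Chromosome ends carry arrays of the hexamer TTAGGG, which shelterin proteins bind and telomerase extends. Next to them lie subtelomeres, a patchwork of segments copied between ends, minisatellites, dense CpG islands and many genes. EZH2 is the methyltransferase of polycomb repressive complex 2, and the histone mark it places, H3K27me3, accompanies compact chromatin at silent genes. The D4Z4 array at the end of 4q, whose units hold DUX4, is a known polycomb-bound subtelomeric repeat. In hg38 the outermost 10 kb of most ends is a run of unknown bases, and the remaining 37.3 Mb of the 44 Mb in question was known sequence.

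The results below turn on tandem arrays, which are shown from the 2 tandem-repeat regions with the largest falls under tazemetostat. Here 240 bases around each centre are given on the + strand, and capitals mark the run of 16 bases that recurs most often, 4 times at chr7:158998500-158998739 and 7 times at chr10:737962-738201.
7q: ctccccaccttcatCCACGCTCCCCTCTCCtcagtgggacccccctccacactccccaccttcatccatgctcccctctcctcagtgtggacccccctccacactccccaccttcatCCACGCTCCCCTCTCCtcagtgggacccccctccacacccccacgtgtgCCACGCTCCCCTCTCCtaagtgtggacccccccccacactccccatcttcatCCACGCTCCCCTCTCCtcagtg
10p: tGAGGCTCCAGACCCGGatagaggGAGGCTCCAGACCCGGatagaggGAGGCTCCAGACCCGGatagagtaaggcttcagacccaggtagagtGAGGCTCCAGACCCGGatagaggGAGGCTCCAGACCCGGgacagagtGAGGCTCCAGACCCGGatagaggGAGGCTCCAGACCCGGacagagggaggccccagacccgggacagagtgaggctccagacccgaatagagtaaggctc
For contrast, the region with the largest rise, an intronic one in COLEC12, has no 16 bases that recur in the 240 around its centre, chr18:362277-362516 on the + strand.
18p: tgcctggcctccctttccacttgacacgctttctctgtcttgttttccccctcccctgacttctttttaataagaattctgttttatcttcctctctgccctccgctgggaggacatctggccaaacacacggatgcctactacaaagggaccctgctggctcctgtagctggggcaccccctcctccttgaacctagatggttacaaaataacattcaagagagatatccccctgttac

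To place the regions along the ends, they were counted per Mb of known sequence. The last 1 Mb held 49.3 regions per Mb against 27.5 in the rest of the autosomes, 1.79 times as many, so that 1.35% of the known autosomal sequence held 2.40% of the autosomal regions. Density was 53.2 per Mb in the outermost 0.25 Mb, 48.8 from there to 0.5 Mb, 47.9 to 1 Mb, 39.1 between 1 and 2 Mb and 26.3 beyond 10 Mb. Protein-coding gene starts were denser still, at 17.2 per Mb against 6.79, which is 2.53 times as many. Per coding gene start there were thus 2.87 subtelomeric regions, against 4.05 elsewhere. By position, 456 of the 1838 regions (24.8%) were centred in a promoter, 138 in an exon, 755 in an intron and 489 between genes. The promoter share was 20.9% in the rest. Median GC content was 57.5% in the subtelomeric regions and 51.7% in the others, and the known sequence itself was 48.2% GC near the ends against 40.9%.

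The content of repeated sequence differed more than position in genes did. For each region, the share of its 31-base words that occur more than once in the genome was computed, and 24.5% of the subtelomeric regions had at least 50% such words (95% Wilson interval 22.6 to 26.6), against 9.97% of the rest (9.76 to 10.2). Regions were sorted by this into 4 kinds, with cut-offs chosen after values had been seen. There were 33 telomere-repeat regions, with at least 10 copies of TTAGGG or CCCTAA. Another 189 were tandem repeats, in which at least 50% of the words recur inside the region or within 1 kb of it. A further 235 were duplicated sequence, repeated mainly elsewhere in the genome, and 1381 were other, mostly single-copy sequence. In the rest of the autosomes the 4 kinds numbered 10, 632, 6818 and 67346. Tandem repeats therefore made up 10.3% of the subtelomeric regions and 0.845% of the others. Their share was 6.90% between 1 and 2 Mb from an end and 2.81% between 2 and 5 Mb. The CTCF consensus was looked for in the central 200 bp of each region, reading either strand, and occurred in 5.77% of subtelomeric regions (4.79 to 6.93) and 4.41% of the rest (4.27 to 4.56), and in 9.61% of those in the outermost 0.25 Mb.

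**Figure D1:**
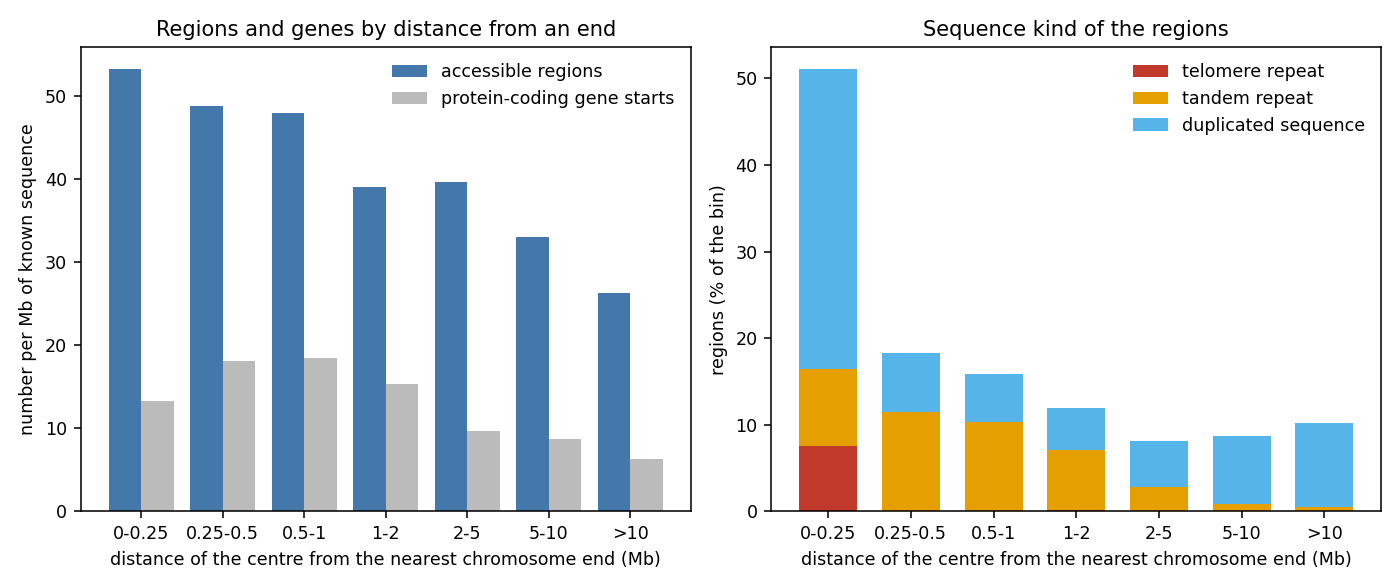
Left, accessible regions (blue) and protein-coding gene starts (grey) per Mb of known sequence, by distance of the centre from the nearest end of an autosome in Mb. Right, percent of the regions in each bin that are telomere repeat, tandem repeat or duplicated sequence. Region density is 53.2 per Mb in the outermost bin and 26.3 in the innermost, and repeats are commonest in the outermost bin.

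Regions were spread unevenly over the ends. Of the 44 ends, 39 had regions; the other 5, the short arms of the acrocentric chromosomes, have no known base in the last 1 Mb. The count per end ran from 4 to 72 with a median of 51. It was highest at 10p with 72, at 17q with 70 and at 15q with 68. The end of 10p holds DIP2C, a large gene with 36 regions in its body. The end of 3p had 4 regions and 1 coding gene start, and 14q had 10 regions and none. At 1q, 17 regions accompanied 34 coding gene starts, many of them olfactory receptors. On 24 ends the outermost region was centred within 12 kb of the tip, next to the unknown bases, and on 21 of these it was a telomere-repeat region. At the other ends the first region lay farther in, up to 160477 bp at 14q.

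**Figure D2:**
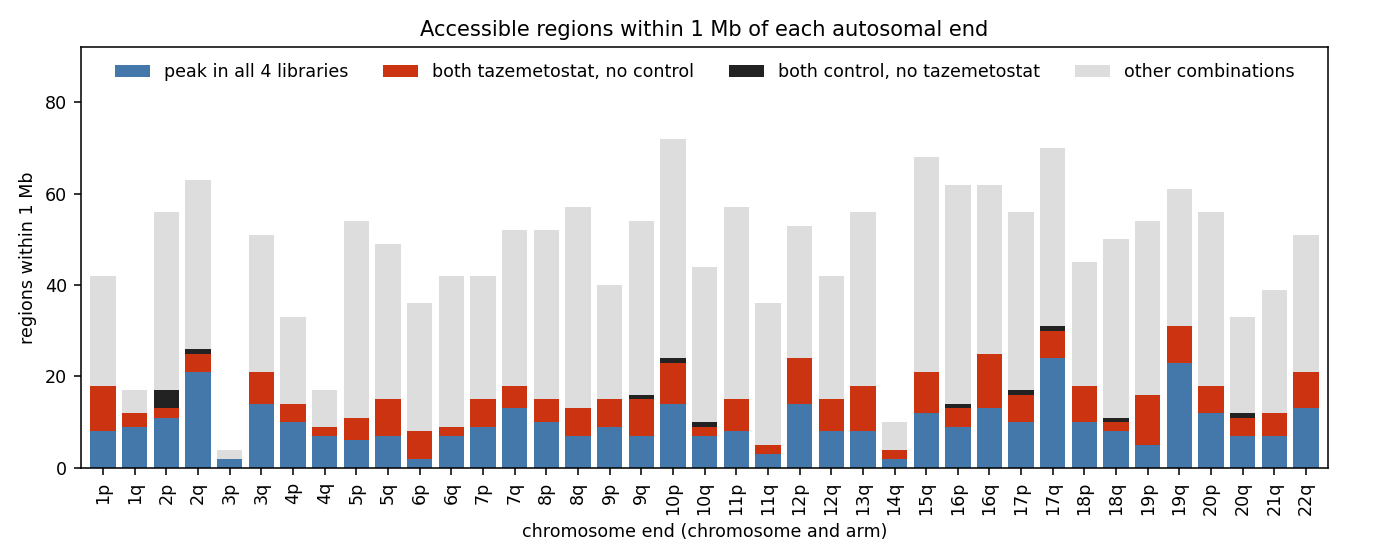
Number of regions within 1 Mb of each autosomal end that has any, stacked by the libraries in which a peak was called. Counts run from 4 at 3p to 72 at 10p.

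Calls were next compared between libraries. A subtelomeric peak lay in 669 of the 1838 regions in control library 1, 781 in control library 2, 1225 in tazemetostat library 1 and 1090 in tazemetostat library 2. Both tazemetostat libraries thus covered more of the regions than either control, as they did in the rest of the autosomes. In the same order of libraries the shares were 36.4, 42.5, 66.6 and 59.3% near the ends. In the rest they were 32.1, 42.7, 67.9 and 66.6%. As a share of each library's autosomal peaks, subtelomeric peaks came to 2.72% and 2.37% for control and 2.35% and 2.14% for tazemetostat libraries. The means were 2.55% ± 0.246 (SD, n = 2) and 2.25% ± 0.147 (SD, n = 2), and the exact permutation test gave p = 0.3333, the smallest that 2 against 2 libraries allow. Leaving out 1 library at a time kept this share lower under tazemetostat, and when peaks had to exceed 8 times their surroundings the sign turned, to 0.0630 points higher.

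In all, 376 regions (20.5%, 18.7 to 22.4) had a peak in all 4 libraries, and 15454 (20.7%) did in the rest, against 20.4% of all 80551 regions. Another 227 (12.4%, 10.9 to 13.9) had one in both tazemetostat libraries and in no control, against 13.6% in the rest and 13.7% in the whole series. Only 13 (0.707%, 0.414 to 1.21) had one in both controls and in no tazemetostat library, against 0.432% and 0.449%. Each of these 95% Wilson intervals, which cover counting error only, includes the value of the rest. With equal numbers of peaks per library the differences from the rest were -4.60 points (interval ± 2.59) for all 4 libraries and 1.57 points (± 1.53) for tazemetostat-only, the latter with its sign turned. Promoter regions differed, in that 31.6% of the 456 subtelomeric ones (27.5 to 36.0) were called in all 4 libraries, against 41.2% of the others. Between genes the order was the opposite, 19.2% (16 to 22.9) against 13.3%. Control-only promoter regions numbered 0 of 456, with an interval of 0 to 0.835% that includes the 0.288% (45 of 15606) of the rest. Of the 13 control-only regions, 4 lay at 2p.

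Signal was then compared within each library between its subtelomeric peaks and the rest of its autosomal peaks. The normalised tag count, in tags per 10000000 mapped, had a subtelomeric median of 14.5, 14.3, 16.6 and 15.4 in control libraries 1 and 2 and tazemetostat libraries 1 and 2. Elsewhere the medians were 12.2, 12.2, 14.6 and 12.8. The subtelomeric median was the larger in 4 of 4 libraries, by 0.22 ± 0.03 (SD, n = 4) on the log2(count + 1) scale. The sign-flip permutation test, exact and two-sided, gave p = 0.13, the smallest possible with 4 libraries. The fold over the local background, which relates a peak to the 10 kb around it, went the other way. Its subtelomeric medians were 4.97, 4.97, 5.29 and 5.13 against 5.92, 5.62, 6.04 and 5.71, a mean difference of -0.733 ± 0.161 (SD, n = 4; exact p = 0.13). Subtelomeric peaks therefore held more tags yet stood out less from their surroundings. Against peaks 1 to 5 Mb from an end the fold no longer differed in this direction, the mean difference being 0.055. A fold of at least 8 was reached by 13.8 to 20.2% of subtelomeric peaks and by 25.6 to 31.5% of the others. Peak lengths had medians of 379, 394.5, 399.5 and 451 bp, against 378, 385, 385 and 389 bp.

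Promoter peaks made up 30.6% and 30.6% of the subtelomeric control peaks and 30.0% and 30.1% of those after tazemetostat. Elsewhere the values were 33.3% and 30.2% for control and 26% and 25.0% for tazemetostat libraries. The difference between subtelomeric peaks and the rest was -2.62 and 0.398 points in the controls and 4.00 and 5.06 points under tazemetostat, which do not overlap (exact p = 0.3333 for the groups, the smallest possible). Peaks in repeated sequence made up 30.9% and 26.4% of subtelomeric control peaks and 21.6% and 23.9% of those after tazemetostat, while in the rest they stayed between 8.05 and 8.99%.

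**Figure D3:**
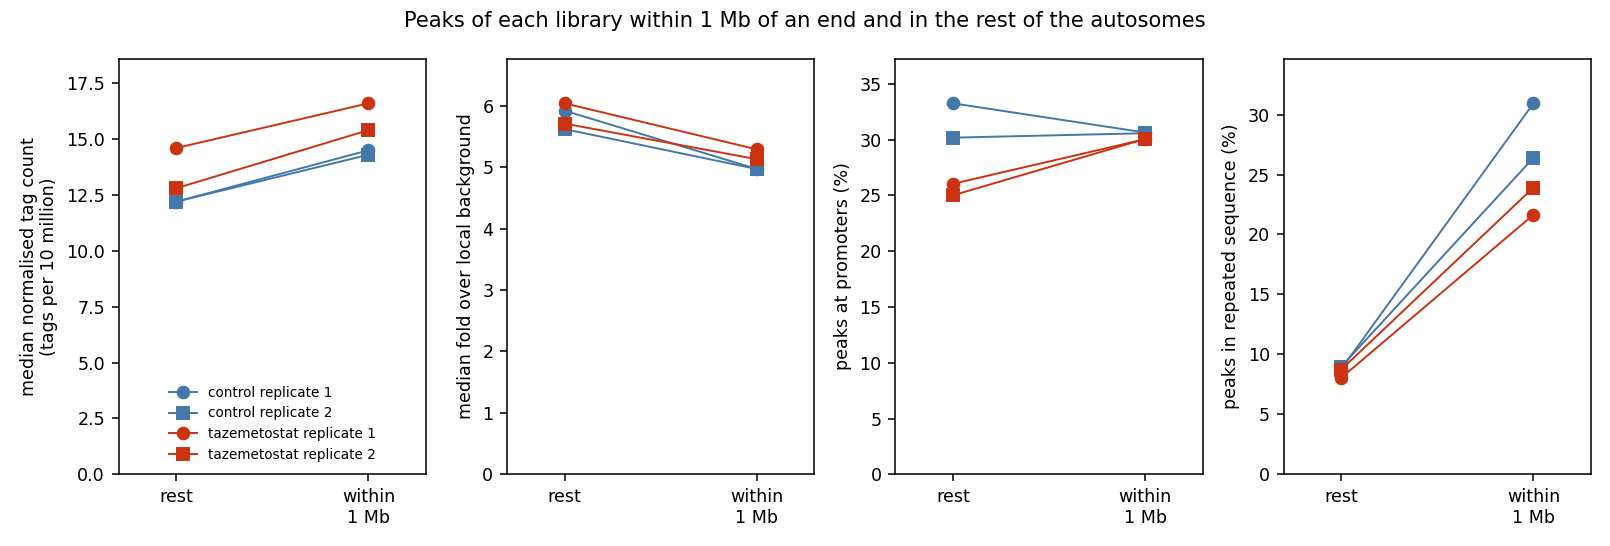
Each line is 1 library (blue, control; red, tazemetostat), joining its value in the rest of the autosomes to its value within 1 Mb of an end. The panels give median normalised tag count, median fold over local background, percent of peaks at promoters and percent of peaks in repeated sequence. Tag counts are larger and folds smaller near the ends in 4 of 4 libraries.

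The outermost regions were telomere repeats. Of the 33 telomere-repeat regions, 26 and 32 had a peak in the controls and 25 and 26 under tazemetostat. In all 4 libraries 21 had one (63.6%), against 20.7% of regions in the rest of the autosomes. There, 32.1 and 42.7% had a peak in the controls and 67.9 and 66.6% under tazemetostat. The largest was at chr5:10062-11911, at the tip of 5p, with 290 copies of CCCTAA. Its highest peak held 247.8 and 221.8 normalised tags without the drug and 204.6 and 93.4 with it, and the groups do not overlap. The next by copies, chr1:248945542-248946435 at 1q, had 108 copies and 114.0, 101.3, 93.7 and 84.7 tags in the same order of libraries. At 3p, chr3:10033-10983 had 88 copies and 90.2, 83.2, 74.6 and 51.2 tags. Among regions called in all 4 libraries, the 3 nearest an end were those at 15q (chr15:101980899-101981194), with 44 copies of TTAGGG and 30.8, 26.1, 24.7 and 19.2 tags, at 13q (chr13:114353961-114354337) with 14.5, 18.9, 12.1 and 9.79, and at 17q (chr17:83247087-83247394) with 24.4, 12.6, 9.57 and 7.53. In each of these 6 both tazemetostat libraries lay below both controls. Over the whole series this held in 269 of the 15383 regions with exactly 1 peak in each library. The 17q region stood far above its surroundings, with folds of 68.07, 60.62, 24.57 and 49.74.

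Summed over the 17 telomere-repeat regions with exactly 1 peak in each library, the normalised tag count was 881.1 and 774.1 in the controls and 682.9 and 596.4 under tazemetostat. In 15 of the 17 both tazemetostat libraries lay below both controls, against 269 of the 15383 such regions in the series. The fitted change was below 0 in 17 of 17, against 705 of the 15383. It had a median of -0.36 on the log2 scale and a range from -0.97 to -0.05. It passed the limma threshold in 1, that at 17q (log2 change -0.97, SE 0.33, adjusted p = 0.0277). With tag counts divided by peak length, 14 of the 17 were below 0, the median was -0.30 and 3 passed. Reads from such arrays match many places, so a count at 1 end cannot be assigned to that end alone. The 17 regions may share reads, so their agreement cannot be counted as 17 separate observations. How reads with several matches were handled is not given in the sources used here.

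**Figure D4:**
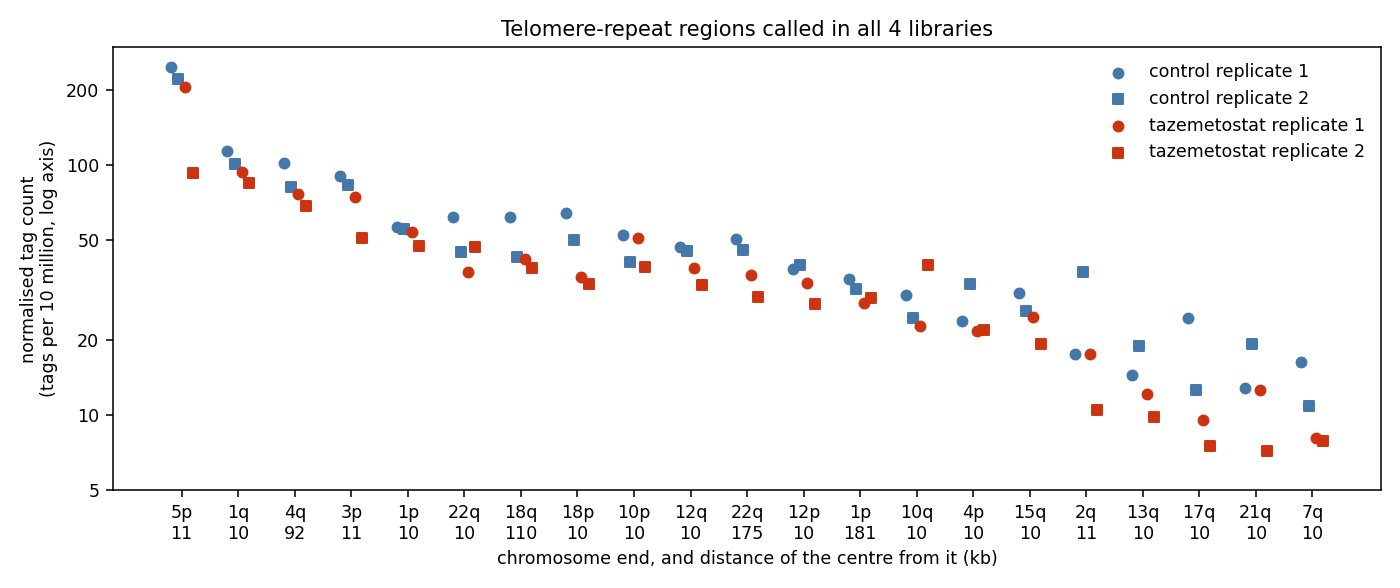
Normalised tag count (log axis) of the 21 telomere-repeat regions with a peak in all 4 libraries, ordered by mean, in control (blue) and tazemetostat (red) libraries. Where a library had several peaks in a region the highest is drawn. At 5p the values run from 93.4 to 247.8, and both red points lie below both blue ones except at 10p, 10q, 2q and the outer region of 22q.

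Duplicated sequence held the other strong peaks. The highest mean tag count of any subtelomeric region was at chr4:190179182-190180069, 34930 bp from the end of 4q. It lay inside the annotation of DUX4, the gene whose misexpression underlies facioscapulohumeral dystrophy, 5851 bp from the gene's start. GC content was 48.3% there and 72.9% in the DUX4L9 region below. Whether the region belongs to the D4Z4 array was not tested. The region held 352.5 and 282.8 tags in the controls and 269.6 and 216.1 under tazemetostat. As in the telomere arrays, reads here match several copies, so this count and those of DUX4L9 and 10q cannot be assigned to 1 place. At chr4:190021603-190022879, an exon of the pseudogene DUX4L9, the values were 195.4, 181.1, 154.7 and 143.0. The matching segment of 10q had chr10:133762925-133764048, with 132.0, 149.6, 112.4 and 120.8, and chr10:133689179-133689615, with 139.6, 91.2, 101.3 and 107.7. A tandem repeat in an intron of EHMT1, which encodes an H3K9 methyltransferase, completed the list (chr9:137845019-137846473) with 150.7, 126.0, 91.7 and 94.1. Control and tazemetostat values did not overlap in these, except at the last 10q region. Both tazemetostat libraries lay below both controls in 269 of the 15383 regions of the series with exactly 1 peak in each library. None passed the limma threshold, the adjusted p being 0.257, 0.308, 0.414, 0.747 and 0.108 in this order of regions. All but the second 10q region were lower with edgeR and TMM factors (adjusted p 0.00185 to 0.00227) and with DESeq2 (0.000798 to 0.0057), and the EHMT1 region also with limma per kb of peak (adjusted p = 0.0473). Their folds over the local background lay between 4.01 and 8, where 4 was required.

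Among the 227 tazemetostat-only regions the strongest was chr7:992767-993553, between genes, 9979 bp from the start of CYP2W1, a cytochrome P450 of fetal gut and some tumours. It had 72.1 and 69.6 tags under tazemetostat and no called peak in the controls. A region at the promoter of SLC39A4 (chr8:144416397-144417019), which encodes an intestinal zinc importer, had 58.5 and 39.5. Near the 4q array, chr4:190120136-190120731 had 35.8 and 44.8. A pair in ADAP1, a gene for an Arf GTPase-activating protein, followed at chr7:926289-926882 with 42.8 and 37.3 and at chr7:901241-901875 with 39.3 and 33.5. A missing peak is not a tag count of 0, since a peak also had to exceed 4 times its local background. The folds of these 5 regions under tazemetostat ran from 4.04 to 5.94.

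The 5 strongest of the 13 control-only regions included 3 in repeated sequence. In DUX4L25, a D4Z4-type pseudogene of 10q, chr10:133667421-133667876 had 43.6 and 32.8 tags. In an intron of BOK, a BCL-2 family gene, chr2:241570272-241570821 had 26.8 and 40.8. The region chr17:82649404-82649910, centred in an exon of an unnamed gene and overlapping a promoter of WDR45B, an autophagy gene, had 22.1 and 17.2, chr16:504006-504562 in RAB11FIP3 had 17.5 and 19.7, and chr20:63896525-63896997 in DNAJC5 had 14 and 16.8. Their folds lay between 4.01 and 5.39, where 4 was required.

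Changes in tag count were tested with limma in the 15383 regions of the series that had exactly 1 peak in each library, of which 350 were subtelomeric. A further 26 of the 376 called in all 4 libraries had more than 1 peak in a library and were not tested. Of the 350, 101 were higher under tazemetostat (28.9%), against 42.7% of all regions tested. Another 8 were lower (2.29%), against 0.247%. Subtelomeric regions had a median log2 change of 0.55, and the 14481 tested in the rest of the autosomes had one of 0.70. Between 1 and 2 Mb from an end, 26.6% of the 237 tested were higher and 1 was lower, with a median of 0.57. From 2 to 5 Mb these values were 35.8% of 730, 8 and 0.64. Beyond 10 Mb they were 44.3% of 12355, 17 and 0.72. Subtelomeric regions made up 2.36% of the tested autosomal regions and 8 of their 37 falls. Both tazemetostat libraries lay above both controls in 234 of the 350 and below them in 49, against 11947 and 188 of the 14481. When either tazemetostat library was left out, 1 remained in its group, and the calls did not hold, here or over all tested autosomal regions. Without tazemetostat library 1 the median was 0.43, against 0.62 over all 14831 tested autosomal regions. Without tazemetostat library 2 it was 0.69 against 0.80, and without control library 1 it was 0.45.

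The kinds of sequence differed in this. In the 263 regions of other sequence the median was 0.62 with 88 higher and 2 lower, and in the rest of the autosomes it was 0.71 with 6002 of 13651 higher. In 41 duplicated regions the median was 0.53 with 12 higher and 0 lower. In 29 tandem repeats it was -0.48 with 1 higher and 5 lower, and 26 of the 29 were below 0, against 705 of all 15383 tested. Tandem repeats elsewhere had a median of -0.37, 0 of 75 higher and 12 lower. Tandem-repeat and telomere-repeat regions together were 18 of the 37 autosomal falls. Among the 14831 tested autosomal regions, tandem repeats numbered 29 near the ends and 75 in the rest, and telomere repeats 17 and 1. The cut-offs of these kinds were chosen after values had been seen. Median peak length in the 29 was 613 and 649 bp in the controls and 473 and 622 bp under tazemetostat. Among other sequence, promoters had a median of 0.70 with 45 of 119 higher, introns 0.54 with 20 of 80 higher, and intergenic regions 0.69 with 19 of 46 higher. In the rest these were 0.71, 0.71 and 0.74.

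**Figure D5:**
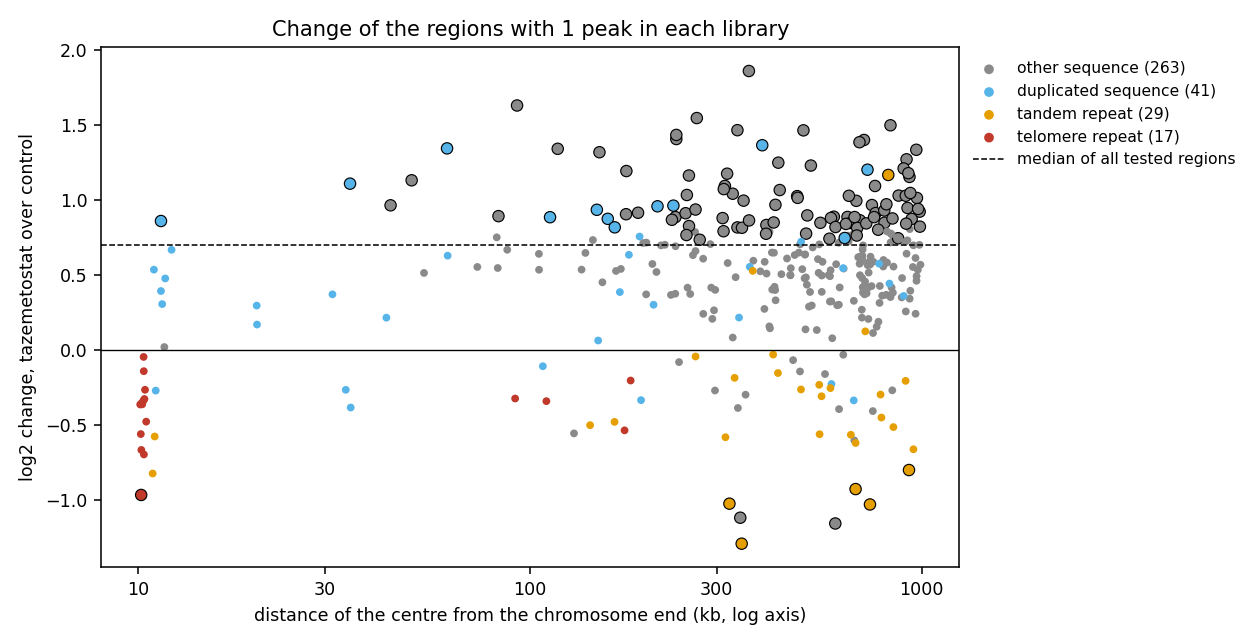
Fitted log2 change in normalised tag count (tazemetostat over control) of the 350 subtelomeric regions with 1 peak in each library, against distance from the chromosome end (log axis), coloured by kind of sequence. Large outlined points have an adjusted p below 0.05 (101 above 0 and 8 below), and the dashed line is the median of all tested regions, 0.70. Telomere repeats and most tandem repeats lie below 0.

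How far these changes read as rises depends on the scaling, because the tested regions as a whole shifted. With libraries centred on their medians, limma called 0 subtelomeric regions (11 higher and 74 lower at an unadjusted p below 0.05). It also called 0 of all 15383 tested (468 and 1188 unadjusted). The subtelomeric median change was -0.21, against -0.06 in the rest. With edgeR and TMM factors 0 were higher (20 unadjusted) and 40 lower, 14 of the 17 telomere repeats, 16 of the 29 tandem repeats, 4 duplicated and 6 other regions, against 0.15% higher and 1.13% lower of all regions tested. DESeq2 called 0 higher (5 unadjusted) and 23 lower, against 3 higher and 103 lower of all 15383 tested. Telomere and tandem repeats were thus below the other regions under every scaling, while the rises were present only when tags were scaled to 10000000 mapped. The fragment length set in peak calling was 200 bp in both controls and 144 bp in both tazemetostat libraries, and this cannot be told apart from the treatment.

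The largest rise past the threshold was in the COLEC12 intron shown above (chr18:361923-362872), a gene for a scavenger receptor. It had 10.5 and 8.40 tags in the controls and 32.8 and 41.0 under tazemetostat (log2 change 1.86, SE 0.30, adjusted p = 0.00247). At 1q, chr1:248863179-248864009 in an intron of ZNF692-DT had 9.89 and 10.5 against 34.8 and 32.4 (1.63). The promoter of TARS3, a threonyl-tRNA synthetase gene (chr15:101723841-101724798), had 8.73 and 14.3 against 38.3 and 31.2 (1.54). At chr18:832179-832923, between genes and 20005 bp from the start of the SRC-family kinase gene YES1, the values were 7.56 and 13.4 against 35.3 and 26 (1.5). The promoter of TM2D3 (chr15:101651940-101652859) had 7.56 and 9.24 against 29.7 and 20.7 (1.46). Peaks in these regions were longer under tazemetostat, 545 to 957 bp against 300 to 589 bp. Per kb of peak the changes were 0.68, 0.62, 0.51, 0.80 and 0.36, of which the third and the fifth no longer passed. The fold over the local background fell at COLEC12, from 8.08 and 5.61 to 4.4 and 4.31. At TARS3 it fell from 10.54 and 7.23 to 6.03 and 6.83. Near YES1 it rose from 8.41 and 8.98 to 11.71 and 10.52, and at ZNF692-DT and TM2D3 the groups overlapped.

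Of the 8 falls, the centre of 1 lay in a promoter, that of a shorter NCAPG2 transcript. The largest, at chr7:158998222-158999018 between genes on 7q, had 39.0 and 31.9 tags in the controls and 12.6 and 15.1 under tazemetostat (log2 change -1.29, SE 0.30, adjusted p = 0.00866). At chr18:79770825-79771666, between genes, the values were 36.6 and 45.0 against 12.6 and 24.5 (-1.16). In an intron of AHRR, the repressor of the aryl hydrocarbon receptor (chr5:344084-344889), they were 33.2 and 46.6 against 14.1 and 21.8 (-1.12). Both of these were of other sequence by the rule, with 32.9% and 35.7% of their words in tandem repeats. The remaining falls were 4 tandem repeats, at chr10:737678-738487, in DIP2C (chr10:322945-323546), in NCAPG2 (chr7:158667296-158668097) and in ADPRHL1 (chr13:113435805-113436356), and the telomere repeat of 17q. GC content was 53.9 to 70.8% in the 8. The groups did not overlap in any, which selection by the same values favours and which adds no evidence. Per kb of peak those at 7q (-0.89), AHRR (-0.77) and 17q (-0.94) still passed. The other 5 did not, with -0.44 at 18q, -0.33 and -0.25 for the pair at 10p, -0.17 in NCAPG2 and -0.42 in ADPRHL1.

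Genes were taken by their start. The annotation has 641 protein-coding genes that start within 1 Mb of an end and 18462 that start elsewhere on the autosomes. A region overlapped a promoter of 326 (50.9%) of the former and 64.3% of the latter. A promoter region called in all 4 libraries was found for 150 (23.4%) against 36.3%, and a tazemetostat-only one, with none in all libraries, for 45 (7.02%) against 6.98%. No test was made of these shares.

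Zinc finger genes, mostly KRAB repressors clustered at 19q, 8q, 12q and 4p, were well covered. Of 42, 34 had a promoter region, 23 of them in all 4 libraries and 2 tazemetostat-only. Regions of 20 genes were tested, and 9 were higher and 0 lower, with a median change of 0.73. Over all regions tested 42.7% were higher and the median was 0.70, so the list stood near the background. ZNF837 had 26.8 and 17.2 tags in the controls and 63.0 and 56.5 under tazemetostat (log2 change 1.43, adjusted p = 0.00676). ZNF672 had 27.9 and 34.5 against 87.7 and 73.0 (1.34), and ZNF324 had 10.5 and 20.6 against 41.3 and 35.4 (1.32). Per kb of peak ZNF837 (0.16, adjusted p = 0.534) and ZNF672 (0.30, adjusted p = 0.254) lost the call, and ZNF324 kept it (0.54, adjusted p = 0.0431). In ZNF517 the groups did not overlap in the other direction, 21.5 and 21.4 against 19.7 and 13.2, with a change of -0.39 that did not pass. TRIM28, the co-repressor of KRAB proteins, had 22.1 and 18.9 against 28.2 and 32.8 (0.55, adjusted p = 0.116).

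Gene families that are themselves copied between ends, such as DDX11L, WASH, FAM138, OR4F and FRG2, had few. Of 39 within reach, 27 had no promoter region, and the sequence of those found was mostly repeated, with a median of 85.3%. Only RABL2B, a GTPase gene at 22q, was called higher among 3 tested, beside 42.7% of all regions tested. It had 8.73 and 24.8 tags in the controls and 37.8 and 29.0 under tazemetostat (1.11, adjusted p = 0.0262, and 0.44 per kb of peak, adjusted p = 0.0938). DDX11L10 at 16p had 18.0 and 23.5 against 40.3 and 22.6, which overlap.

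Liver and metabolic genes had a promoter region in 27 of 40, 11 in all 4 libraries and 4 tazemetostat-only. Of 11 tested, 5 were higher, beside 42.7% of all regions tested. SIRT3, a mitochondrial deacetylase gene, had 12.8 and 11.3 tags in the controls and 41.3 and 27.1 under tazemetostat (1.40, adjusted p = 0.00722), in a region that also covers the start of PSMD13. LSS, for lanosterol synthase, had 12.2 and 6.72 against 20.7 and 18.4 (1.02). Per kb of peak neither call held, with changes of 0.00045 for SIRT3 (adjusted p = 0.999) and 0.30 for LSS (adjusted p = 0.254). CYP2E1, the ethanol-inducible P450, had 12.2 and 13 against 20.2 and 19.2 (0.61, adjusted p = 0.0866). SLC26A1, a sulfate transporter gene at 4p, was called under tazemetostat alone, with 34.8 and 36.1, as was the adjoining IDUA with 32.3 and 23.3.

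DNA repair, replication and telomere genes had one in 15 of 20. With 1 region counted per gene, 4 of 6 tested were higher, beside 42.7% of all regions tested. NCAPG2, of the condensin II complex, is among these 4 (0.84, adjusted p = 0.0383), while the tandem repeat at its other promoter is among the falls above (-0.93, adjusted p = 0.0233). FANCA, of the Fanconi anaemia core complex, had 16.3 and 16 tags against 42.8 and 35.8 (1.23, adjusted p = 0.0100). TBP, the TATA-binding protein gene, had 21.5 and 27.3 against 64.0 and 39.9 (1.03) in a region shared with PSMB1, and TYMS, for thymidylate synthase, had 25.0 and 26.5 against 46.9 and 47.1 (0.84). Per kb of peak FANCA, TBP and TYMS kept their calls and NCAPG2 did not (0.31, adjusted p = 0.228). Genes listed as chromatin regulators had one in 14 of 18, and 2 of 7 tested were higher, beside 42.7% of all regions tested. These were DIP2C (1.04, and 0.70 per kb) and DEAF1 (0.86, and 0.33 per kb, where it did not pass). The DIP2C region was a promoter region 329554 bp from the end of 10p. A tandem repeat in an intron of DIP2C is among the falls above (-1.03, adjusted p = 0.0182 with limma). KDM5A, an H3K4 demethylase gene, was tazemetostat-only with 13.1 and 17.3. Of the ribosomal protein genes, RPL8 was tazemetostat-only with 22.7 and 20.7 tags, as was RPL13 with 20.7 and 21.5.

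Of 22 developmental regulators, 19 had no promoter region in any library, among them SOX8, SOX18, DMRT1 and UTF1. The exception in all 4 libraries was DLL1, a Notch ligand gene at 6q, with 7.56 and 10.1 tags in the controls and 25.7 and 26 under tazemetostat (1.46, adjusted p = 0.00572), in a region shared with the start of FAM120B. DLL1 was the only 1 of these regulators tested, where 42.7% of all regions tested were higher. Of 21 interferon and innate immune genes, 15 had none. Of 3 tested, 1 was higher, beside the same 42.7%. This was TRIM41 (1.09, adjusted p = 0.0208), while IFITM3 had overlapping values. In the alpha-globin locus of 16p, 7 of 12 genes had a promoter region, 4 of them in all libraries and 2 tazemetostat-only. Of these, 0 of 4 tested passed, where 42.7% of all regions tested were higher. HBA1 and HBA2 had none. A weak tazemetostat-only region near HBZ and HBM (chr16:152672-153058) had 7.05 and 8.66 tags, and NPRL3, whose introns hold the globin enhancers, had 7.56 and 9.66 against 12.6 and 15.4 (0.64, adjusted p = 0.0773).

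As a check of the cell type, 9, 10, 9 and 11 of 13 liver genes had a promoter peak in the 4 libraries, but ALB and FGB had none in any. Of 6 genes of other cell types, 0 had one in the controls and 2 and 1 did under tazemetostat (GFAP in both, MYOD1 in library 1), and their part in the results was not tested. Mapped tags numbered 17191428 and 23800380 in the controls and 19844503 and 26564400 under tazemetostat, ranges that overlap between the groups. Tags inside autosomal peaks more than 1 Mb from an end did not overlap. They numbered 687455 and 1264115 in the controls and 2140044 and 2444479 under tazemetostat. The part of this difference in the call counts and scaled tag counts was not tested.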

How the data were processed

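The data are ATAC-seq peak lists of 4 HepG2 libraries, grouped by sample title. Per the methods and the submitters' processing notes, Trim Galore 0.6.6 served the authors for trimming, Bowtie2 2.3.5.1 for alignment to hg38 (inserts of up to 2000 bp) and HOMER 4.11.1 for peaks. Each library was called on its own, per the file headers, from windows of 300 bp that were joined into regions of variable length and kept at 4 times the surrounding 10 kb (p-value 0.0001), with at most 1 tag per bp. The headers give a false discovery rate of 0.001 where the methods state 0.05.

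The normalised tag count, as deposited, is a signal in tags per 10000000 mapped. The deposited fold over the local background is a ratio. The deposited score, a count of tags, and the deposited p-value were not used. Multiplying the signal by the mapped tags gave a whole number within 0.25 in 100% of peaks, and these counts entered edgeR and DESeq2. No list gives a value where no peak was called.

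Peaks were merged at an overlap of 1 bp. Distance was measured to the end of the hg38 chromosome, and centres were annotated with GENCODE release 44 (a promoter runs from 1 kb before a start to 100 bp after it). The known bases, the repeated 31-base words and the sequences shown came from hg38. Values of libraries were compared with exact permutation tests. limma 3.58.1 on log2(normalised tag count + 1) (on which low values change too little) was fitted to all regions with 1 peak per library, with Benjamini-Hochberg adjustment at 0.05. edgeR 4.0.16 (quasi-likelihood) and DESeq2 1.42.0 ran in R 4.3.3, the rest in Python 3.11.15. Regions are not replicates; shares carry 95% Wilson intervals for counting error only. Merging and fits were tested on simulated data.

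Members, gene lists and tests were chosen with earlier results of these data known. Named are the 6 strongest regions called in all libraries, the 5 strongest tazemetostat-only and control-only ones, the 5 largest rises and 3 largest falls past the threshold, the 3 nearest an end, the 3 with most TTAGGG, and listed genes that start within 1 Mb. The remaining falls and the 4 kinds of sequence were added after values were seen. Alternatives covered the window, peak filters, repeats, comparator, scaling, test and libraries. Some listed genes and sequences are not reported here.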

Additional observations from a re-analysis of the deposited data

How the results depend on the processing

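The subtelomeric excess of tag count kept its direction under every alternative tried (0.11 to 0.23 on the log2 scale). Some other results turned. With folds of at least 8 the share of peaks near the ends was 0.0630 points higher under tazemetostat, in place of 0.297 lower. With equal numbers of peaks per library the promoter share and peak length of subtelomeric peaks were lower by -0.117 points and -7.625 bp. Against peaks 1 to 5 Mb from an end the fold difference was 0.055. The ratio of region densities was 1.61 for a 2 Mb window, 1.11 at folds of at least 8, 2.08 with equal numbers of peaks and 1.5 without repeated sequence. The difference in percent of regions called in all 4 libraries, -0.202 points as reported, was -2.27 for 2 Mb, -2.54 at folds of at least 8, -4.60 with equal numbers and 3.92 against 1 to 5 Mb. That for tazemetostat-only regions, -1.21 points as reported, was 1.57 with equal numbers and 0.625 against 1 to 5 Mb.

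Higher calls numbered 52 within 500 kb, 164 within 2 Mb and 57 per kb of peak, and lower calls 4 within 500 kb and 2 without repeated sequence. After median centring there were 0 higher and 0 lower (0 and 0 of all 15383 tested). With edgeR and TMM factors there were 0 higher and 40 lower (23 and 174 of all tested), and with DESeq2 0 and 23 (3 and 103). The median change was then -0.21, -0.14 and -0.13, and per kb of peak it was 0.31. Leaving out 1 library at a time gave 0 to 138 higher and 0 to 12 lower calls, with medians of 0.43 to 0.69. Without tazemetostat replicate 1 limma called none (46 higher and 7 lower at an unadjusted p below 0.05), and without replicate 2 none (102 and 5); without control replicate 1 it called 64 higher. Over the other library values, leaving out 1 library gave ranges of -0.471 to -0.124 points for the subtelomeric share, 0.593 to 3.15 points for promoters, 0.206 to 0.231 for the log2 tag count, -0.783 to -0.66 for the fold and 8.33 to 28.7 bp for length. Same-numbered replicates did not deviate together (r = -0.00246), and with the replicate number as a block 76 regions were higher and 7 lower.

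In the kinds of sequence, telomere and tandem repeats had medians below 0 in each alternative run on them (added after seeing the data). The causes of these shifts were not tested. Depth limits the lists: a weak region can miss a peak in 1 library.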
